A study of Mus musculus with 6 samples.

Results

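The CXC chemokine ligands were read in 6 mouse livers 24 hours after a toxic injury. The 10 ligands were taken by symbol from the 24346 genes of the deposited table, and all 10 were present. They were grouped by their known roles into 3 neutrophil-directed ligands (Cxcl1, Cxcl2 and Cxcl5), 3 interferon-type ligands (Cxcl9, Cxcl10 and Cxcl11) and 4 ligands counted here as homeostatic (Cxcl12, Cxcl13, Cxcl14 and Cxcl16). Among the ligands, Cxcl10 was the only one past the test, about 2-fold higher in the livers labelled med23Δli. Cxcl1 and Cxcl2 varied widely from liver to liver, and Cxcl9 and Cxcl12 stayed within a narrow range.

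The study asked how MED23, a subunit of the Mediator complex that links transcription factors to RNA polymerase II, acts on hepatic chemokine genes during fibrosis. RNA was sequenced from 3 med23f/f livers and 3 med23Δli livers, all from male C57/BL6 mice 8 weeks old. Every mouse, controls included, had received 0.6 μl CCl4 per g body weight in sunflower oil by intraperitoneal injection, so no liver without the toxin was compared. CCl4 is converted by hepatocytes into a reactive radical that kills cells around the central vein. The med23Δli mice carry floxed Med23 alleles and Albumin-cre, which deletes the floxed segment in hepatocytes, and the control mice carry the floxed alleles and are labelled wild type. Endothelial, stellate and immune cells therefore keep Med23, and the RNA came from the whole liver, in which fewer cells of a type and less RNA per cell cannot be told apart. The labels give 1 library per numbered liver.

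CXC chemokines are small secreted proteins in which another residue stands between the first cysteines. Ligands with a glutamate-leucine-arginine (ELR) motif before those cysteines bind CXCR2 and draw neutrophils, and NF-κB drives their genes after IL-1 or TNF. Cxcl9, Cxcl10 and Cxcl11 are induced by interferons and bind CXCR3 on T cells and NK cells. Cxcl12 binds CXCR4 and holds haematopoietic cells in their niches, Cxcl13 binds CXCR5 and organizes B cell follicles, Cxcl14 is made in many resting epithelia, and Cxcl16 is a membrane-bound ligand of CXCR6 that is shed by ADAM10.

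The coding bases at the CXC motif are shown because they separate the neutrophil-directed class from the other members by sequence alone. Each run has 18 bases, from GENCODE M21 transcripts on the assembly of mm10, written 5′ to 3′ in the direction of the gene. Capitals mark the 3 codons before the first cysteine, and the lower-case bases are the cysteine, the residue between and the next cysteine.
Cxcl1 (chr5:90891487-90891504, plus strand, exon 2): GAGCTGCGCtgtcagtgc
Cxcl2 (chr5:90904133-90904150, plus strand, exon 2): GAACTGCGCtgtcaatgc
Cxcl5 (chr5:90759718-90759735, plus strand, exon 2): GAGCTGCGTtgtgtttgc
Cxcl9 (chr5:92326842-92326859, minus strand, exon 2): AATGCACGAtgctcctgc
Cxcl10 (chr5:92348181-92348198, minus strand, exon 2): ACGGTCCGCtgcaactgc
Cxcl12 (chr6:117171499-117171516, plus strand, exon 2): AGCTACCGAtgcccctgc
Cxcl13 (chr5:95958655-95958672, plus strand, exon 2): AACTTAAAAtgtaggtgt
Cxcl14 (chr13:56295915-56296110, minus strand, across the junction of exons 1 and 2): GGGTCCAAGtgtaagtgt
Cxcl16 (chr11:70459127-70459144, minus strand, exon 2): GCTGGAAGTtgttcttgt
Only the 3 neutrophil-directed members encode ELR at this place. Cxcl11 is annotated as a polymorphic pseudogene on this assembly, and its annotated frame of 36 codons ends before a CXC motif, so no run is given for it.

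Of the 10 members 7 lie on chromosome 5, in the positions that the annotation of mm10 gives. Cxcl1 (ENSMUSG00000029380.11, chr5:90891241-90893115) and Cxcl2 (ENSMUSG00000058427.10, chr5:90903871-90905938) follow each other on the plus strand with 10755 bases between them. Cxcl9 (ENSMUSG00000029417.9, chr5:92321347-92328079), Cxcl10 (ENSMUSG00000034855.13, chr5:92346638-92348889) and Cxcl11 (ENSMUSG00000060183.6, chr5:92359544-92365485) follow on the minus strand, with 18558 and 10654 bases between neighbours. Cxcl5 (ENSMUSG00000029371.7, chr5:90759360-90761624) and Cxcl13 (ENSMUSG00000023078.6, chr5:95956951-95961068) are on the plus strand of the same chromosome. Cxcl12 (ENSMUSG00000061353.11, chr6:117168535-117181367), Cxcl14 (ENSMUSG00000021508.11, chr13:56288643-56296551) and Cxcl16 (ENSMUSG00000018920.11, chr11:70453983-70459984) stand apart from them.

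The promoters of Cxcl1, Cxcl2 and Cxcl10 are shown because these are the members with the largest differences among those tested. The bases come from RefSeq on GRCm38.p6 and end before the annotated start of the gene, and positions count back from the RefSeq start. Capitals mark matches to a κB-type motif (GGGNNNTTCC on either strand) and, in Cxcl10, to an interferon-response type motif (GAAANNGAAA on either strand).
Cxcl1 (chr5:90891125-90891240, plus strand): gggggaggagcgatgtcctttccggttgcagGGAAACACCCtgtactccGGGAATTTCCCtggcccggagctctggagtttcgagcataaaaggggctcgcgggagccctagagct
Cxcl2 (chr5:90903779-90903870, plus strand): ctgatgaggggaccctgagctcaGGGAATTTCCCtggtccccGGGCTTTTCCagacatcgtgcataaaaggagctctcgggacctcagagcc
Cxcl10 (chr5:92348890-92349139, minus strand): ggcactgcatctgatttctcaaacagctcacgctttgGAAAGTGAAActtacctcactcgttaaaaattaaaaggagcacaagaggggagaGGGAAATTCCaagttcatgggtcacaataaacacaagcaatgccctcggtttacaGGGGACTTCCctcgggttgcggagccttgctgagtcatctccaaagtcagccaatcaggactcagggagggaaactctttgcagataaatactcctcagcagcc
Cxcl1 has κB-type matches at −89, −71 and −70, and Cxcl2 at −97, −96 and −78, where each adjacent pair is a pair of overlapping matches on opposite strands, offset by 1 base. Cxcl10 has κB-type matches at −159 and −104 and the interferon-response type match at −213. Of 32851 RefSeq promoters, 4.65% hold the κB-type motif and 2.98% the interferon-response type motif in their last 250 bases. In the 250-base windows of the other members with a RefSeq entry, Cxcl9, Cxcl12, Cxcl13 and Cxcl14, the κB-type motif was not found, and Cxcl14 had an interferon-response type match at −172. The study also examined RORα, and the ROR half-site AGGTCA, present in 14.0% of promoters, was found on either strand at −85 in Cxcl9, −87 in Cxcl13 and −130 in Cxcl14. This half-site was not found in the 250-base windows of Cxcl1, Cxcl2, Cxcl10 and Cxcl12. A match describes letters and not binding, and Cxcl5, Cxcl11 and Cxcl16 were not searched.

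Values are FPKM, fragments scaled for transcript length and for the mapped fragments of the library, as the authors obtained them with Cuffdiff from reads aligned by TopHat. FPKM keep no read counts and the depth of each library is unknown, so the error given is the spread between the 3 livers of a group, which may be partly technical. Med23 itself had 3.51 ± 0.589 FPKM in med23f/f and 3.24 ± 0.286 FPKM in med23Δli livers (SD, n = 3 each; exact two-sided permutation p = 0.4), so it did not tell the groups apart and every direction below rests on the labels. The med23Δli replicate 2 library stood apart in adipose genes, with a summed level of 214 FPKM over 8 markers against at most 67.1 FPKM in the other 5 libraries. The neutrophil markers S100a8 and S100a9 and the Kupffer cell markers Clec4f and Vsig4 were above 0 in every library. Alb, the hepatocyte marker, had at least 12624 FPKM in each.

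Cxcl12 was the most abundant ligand, followed in mean FPKM over the 6 livers by Cxcl1, Cxcl14, Cxcl2, Cxcl10, Cxcl16, Cxcl9, Cxcl13, Cxcl11 and Cxcl5. The means ran from 55.8 FPKM for Cxcl12 and 29.8 FPKM for Cxcl1 down to 0.494 FPKM for Cxcl11 and 0.0700 FPKM for Cxcl5. The place of Cxcl2 rests on med23f/f replicate 3, since its median of 4.49 FPKM was below those of Cxcl10 and Cxcl16 (7.59 and 6.36 FPKM), and it was above Cxcl10 in 2 of the 6 libraries. Neighbours in this order had overlapping ranges, except that Cxcl16 lay above Cxcl9 and Cxcl11 above Cxcl5 in all 6 libraries. The summed level of the 10 ligands lay between 110 and 145 FPKM in med23f/f and between 118 and 151 FPKM in med23Δli livers. Cxcl12 was the highest ligand in 5 libraries and held between 35.0% and 55.9% of that sum, and in med23Δli replicate 3 Cxcl1 was higher.

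**Figure D1:**
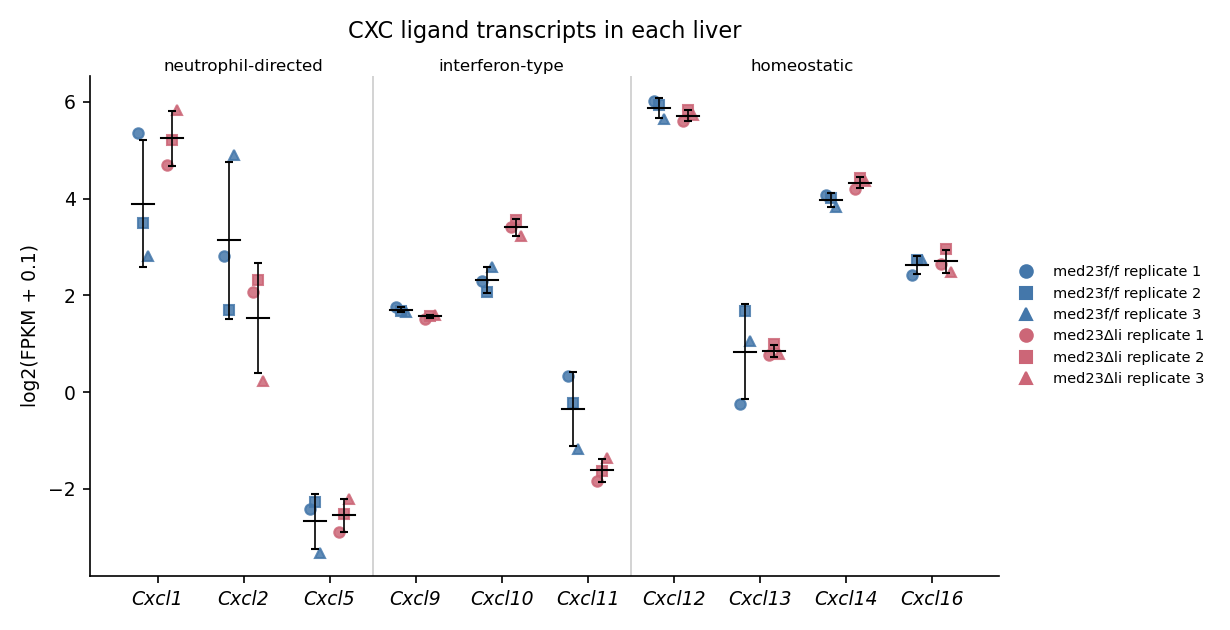
Level of each CXC ligand in each liver as log2(FPKM + 0.1), with points for libraries, horizontal lines for group means and bars for 1 SD (n = 3 each). Only Cxcl9, Cxcl10, Cxcl11 and Cxcl14 show groups that do not overlap, and Cxcl1, Cxcl2 and the med23f/f values of Cxcl13 spread most.

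Groups were compared with limma on log2(FPKM + 0.1) over the 11956 genes whose mean reached 0.5 FPKM, with Benjamini-Hochberg adjustment over those genes. Fold changes are on this scale, which understates the change of low genes. Of the 10 ligands, 8 were tested, and Cxcl5 and Cxcl11 fell below the filter. At an adjusted p under 0.05, 1 ligand was higher and 0 were lower in med23Δli livers, where 11.6% of all tested genes were higher and 9.48% lower. An unadjusted p under 0.05 was reached by 2 ligands, Cxcl10 and Cxcl14, both higher, where 20.5% of all tested genes were higher and 17.1% lower at that threshold. In an exact two-sided permutation test, which cannot go below 0.1 with 3 livers against 3, p was 0.1 for Cxcl9, Cxcl10, Cxcl11 and Cxcl14 and 0.3 for Cxcl1 and Cxcl2. With a change of more than 2-fold also required, 1 ligand was higher and 0 lower, against 4.45% and 3.45% of tested genes. These counts depended on single livers: without med23f/f replicate 1 Cxcl1 was also higher, by more than 2-fold, without med23f/f replicate 2 Cxcl10 came to 0.96 and so under 2-fold, and without med23f/f replicate 3 Cxcl11 passed the filter and was lower, by more than 2-fold. The median log2 fold change was 0.05 over the 8 ligands and 0.02 over all tested genes, and the median size of the change regardless of sign was 0.26 and 0.34.

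**Figure D2:**
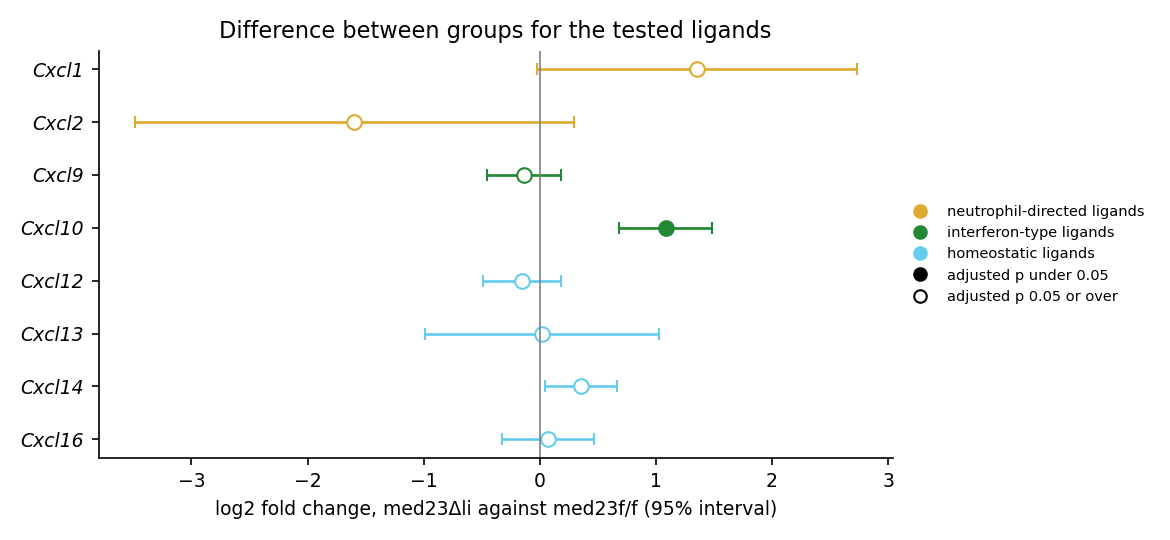
Log2 fold change of the 8 tested ligands, med23Δli against med23f/f, with 95% intervals from limma on log2(FPKM + 0.1) (n = 3 each). The intervals of Cxcl10 and Cxcl14 lie wholly above 0, with an adjusted p of 0.00737 (filled) and 0.0952 (open), and those of Cxcl1 and Cxcl2 are the widest.

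Cxcl1 encodes the ELR ligand KC, the main neutrophil attractant that hepatocytes and stromal cells release on IL-1. It had 40.9, 11.2 and 6.96 FPKM in the med23f/f livers and 25.7, 37.2 and 56.6 FPKM in the med23Δli livers. The groups overlapped, because med23f/f replicate 1 lay above 2 of the med23Δli livers. The means were 19.7 ± 18.5 and 39.9 ± 15.6 FPKM (SD, n = 3 each), with a log2 fold change of 1.35, a 95% interval from −0.02 to 2.73 and an adjusted p of 0.138 (limma). Without med23f/f replicate 1 the log2 fold change was 2.09 with an adjusted p of 0.0183 (limma), so the call depends on that liver. Leaving out each of the other livers gave values from 0.82 upwards, none with an adjusted p under 0.05.

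Cxcl2 encodes MIP-2, an ELR ligand made largely by macrophages and by neutrophils themselves. Its levels were 6.93, 3.17 and 29.7 FPKM in med23f/f and 4.09, 4.90 and 1.08 FPKM in med23Δli livers, a 27.6-fold range over the 6 livers. The groups overlapped, with the highest value in med23f/f replicate 3 and the lowest in med23Δli replicate 3. The means were 13.3 ± 14.3 and 3.35 ± 2.01 FPKM (SD, n = 3 each), and the log2 fold change was −1.60 (95% interval from −3.49 to 0.29), for an adjusted p of 0.192 (limma). Leaving out 1 liver at a time gave log2 fold changes from −2.31 without med23f/f replicate 2 to −0.72 without med23f/f replicate 3, with −0.94 without med23Δli replicate 3, and none had an adjusted p under 0.05 (limma). Of the 9 neutrophil markers in the table, 3 (S100a8, S100a9 and Retnlg) were also highest in med23f/f replicate 3. A further 3 (Csf3r, Mpo and Elane) were highest in med23f/f replicate 2, where Cxcl2 was at its lowest among the controls. Ltf was highest in med23f/f replicate 1, and Camp and Ngp were highest in med23Δli replicate 1. Mpo, Elane, Ltf, Camp and Ngp were under the filter, and Csf3r differed little among the controls (2.88, 3.14 and 3.01 FPKM). The part of these markers in the Cxcl2 value was not tested.

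Cxcl5, an ELR ligand of epithelial cells and platelets, was near the bottom of the scale. It was listed at 0.0883, 0.108 and 0 FPKM in med23f/f and at 0.0342, 0.0745 and 0.116 FPKM in med23Δli livers. The groups overlapped, and the gene was not tested. In a fit with no filter, over 17752 genes, its log2 fold change was 0.12 with an adjusted p of 0.839 (limma).

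Cxcl1 and Cxcl2 were the tested ligands with the widest spread between livers of one group. Their within-group SD on the log2 scale was 1.01 and 1.40, against a median of 0.22 over all tested genes, which placed them at percentiles 98.3 and 99.2. Both have κB-type matches in the promoter sequences above, and their fitted values had opposite signs, neither past the test. The ratio of Cxcl1 to Cxcl2 was 5.91, 3.54 and 0.235 in med23f/f and 6.30, 7.60 and 52.6 in med23Δli livers. The ratios did not overlap, and each med23Δli liver lay above every med23f/f liver. The within-liver difference was 2.95 larger on the log2 scale in the med23Δli livers (exact two-sided permutation p = 0.1, the smallest that 3 against 3 can give; 0.15 adjusted over 6 pairs). Leaving out 1 liver at a time gave 1.54 to 3.85. With a pseudocount of 1 the difference was 2.63 and the groups overlapped (exact permutation p = 0.2). The coding sequences of Cxcl1 and Cxcl2 are 76.0% identical, and the annotated transcripts share no run longer than 23 bases. Cxcl2 and Cxcl3, another ELR ligand, are 89.7% identical with a shared run of 110 bases, so the authors' counting could have divided some reads between them. Cxcl3 was listed between 0 and 0.375 FPKM.

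**Figure D3:**
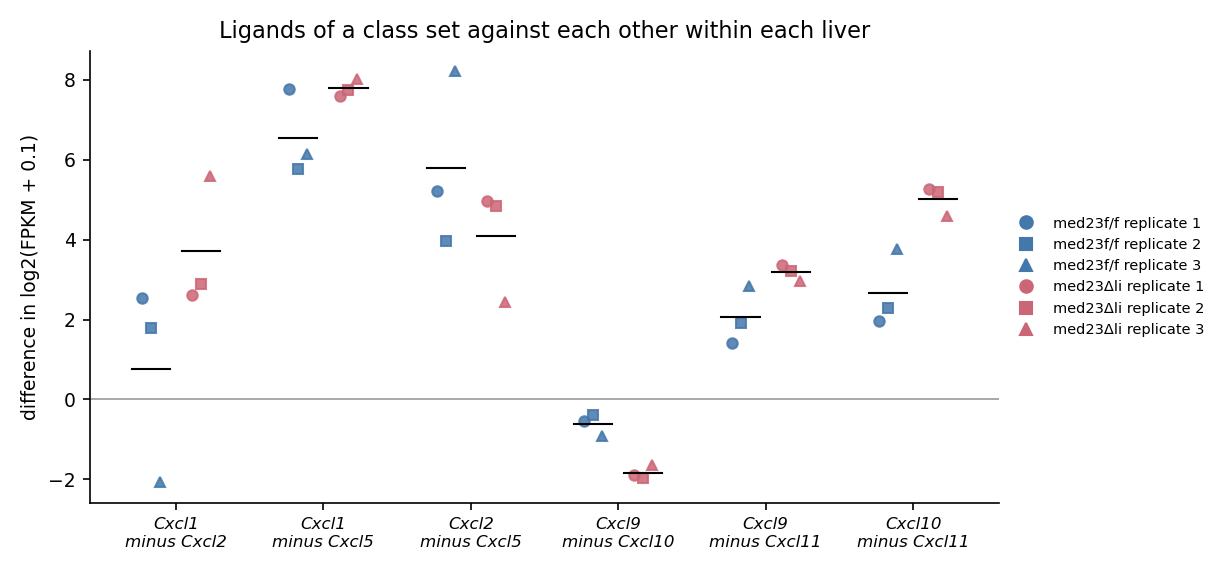
Difference in log2(FPKM + 0.1) between ligands of one class within each liver, with points for libraries and lines for group means (n = 3 each). The groups do not overlap for Cxcl1 minus Cxcl2 or for the 3 interferon-type pairs, whose exact permutation p is 0.1 each, and they overlap for both pairs with Cxcl5. For both pairs with Cxcl10 this follows from the single ligands, whose groups do not overlap in opposite directions.

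Cxcl9, the interferon-γ-induced ligand MIG of CXCR3, had 3.29, 3.11 and 3.07 FPKM in med23f/f and 2.77, 2.90 and 2.91 FPKM in med23Δli livers. Each med23Δli value was below each med23f/f value, but the gap was small. The means were 3.16 ± 0.114 and 2.86 ± 0.0803 FPKM (SD, n = 3 each), and the log2 fold change was −0.14 (95% interval from −0.46 to 0.18), for an adjusted p of 0.494 (limma). Its within-group SD of 0.05 on the log2 scale was at the 0.460 percentile of tested genes, among the lowest. Of the 8 tested ligands, Cxcl9 was the 1 whose groups did not overlap with the med23Δli values lower, and 2 (Cxcl10 and Cxcl14) did not overlap with them higher. Among all tested genes these shares were 20.4% lower and 23.3% higher.

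Cxcl10 encodes IP-10, a CXCR3 ligand that hepatocytes, endothelial cells and macrophages make on interferon or TNF. Its levels were 4.81, 4.10 and 5.93 FPKM in med23f/f and 10.6, 11.7 and 9.25 FPKM in med23Δli livers. All 3 med23Δli livers lay above all 3 controls. The mean rose from 4.94 ± 0.925 to 10.5 ± 1.24 FPKM (SD, n = 3 each), and the log2 fold change was 1.09 (standard error 0.17), with a 95% interval from 0.68 to 1.49 and an adjusted p of 0.00737 (limma). Leaving out 1 liver at a time gave 0.96 to 1.22, with adjusted p between 0.00368 and 0.0373 (limma). The Art3 gene on the opposite strand shares 133 of the 2252 exon bases of Cxcl10. Art3 was listed between 0.203 and 0.573 FPKM, below every Cxcl10 value.

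Cxcl11, the interferon-type ligand I-TAC, was low throughout. As given above, it is annotated on mm10 as a polymorphic pseudogene whose frame ends before a CXC motif. It had 1.17, 0.760 and 0.345 FPKM in med23f/f and 0.179, 0.222 and 0.289 FPKM in med23Δli livers. The groups did not overlap, with the med23Δli values lower, and the 3 controls spread over a 3.39-fold range. The mean over all livers was just under the filter of 0.5 FPKM, whereas Cxcl13, the next member above it, had 1.83 FPKM. With no filter the log2 fold change was −1.27 (95% interval from −2.22 to −0.31), for an adjusted p of 0.0917 (limma). In the 4 fits with a liver left out in which it passed the filter, the log2 fold change lay between −1.68 and −1.15, and only without med23f/f replicate 3 was the adjusted p under 0.05, at 0.0185 (limma). A pseudogene on the opposite strand, Gm2673, overlaps 1582 of the 3794 exon bases of Cxcl11, and the library kit does not mark strand, so reads of both cannot be told apart.

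The interferon-type ligands, which lie side by side on chromosome 5, were also set against each other within each liver. The ratio of Cxcl10 to Cxcl9 was 1.46, 1.32 and 1.93 in med23f/f and 3.84, 4.05 and 3.18 in med23Δli livers. Every med23Δli ratio was above every med23f/f ratio. On the log2 scale the difference of Cxcl9 minus Cxcl10 was 1.22 lower in med23Δli livers, that is a change of −1.22, that of Cxcl9 minus Cxcl11 was 1.13 higher and that of Cxcl10 minus Cxcl11 was 2.35 higher. Each of the 3 had an exact two-sided permutation p of 0.1, the smallest possible, and 0.15 adjusted over the 6 pairs. For both pairs with Cxcl10 this p was fixed by the single ligands, since Cxcl10 was higher and Cxcl9 and Cxcl11 lower without overlap. The difference of Cxcl9 minus Cxcl11 is the sum of the others, so the 3 are not separate results. With a pseudocount of 1 both differences with Cxcl11, the lowest of the class, shrank to 0.38 and 1.45. Their p stayed at 0.1 (exact permutation), which for Cxcl10 minus Cxcl11 no pseudocount could change. Both pairs with Cxcl5 gave larger p-values, 0.3 for Cxcl1 minus Cxcl5 and 0.4 for Cxcl2 minus Cxcl5 (exact permutation, n = 3 each; 0.36 and 0.4 adjusted).

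Among the homeostatic ligands, Cxcl12, the stromal factor SDF-1 that binds CXCR4, had 65.1, 61.3 and 50.1 FPKM in med23f/f and 48.3, 56.9 and 52.8 FPKM in med23Δli livers. The groups overlapped. The means were 58.8 ± 7.83 and 52.7 ± 4.31 FPKM (SD, n = 3 each), and the log2 fold change was −0.15 (95% interval from −0.49 to 0.18), for an adjusted p of 0.470 (limma). A difference as large as 2-fold in either direction lies outside that interval.

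Cxcl13, the B cell attractant, had 0.749, 3.12 and 1.99 FPKM in med23f/f and 1.61, 1.90 and 1.63 FPKM in med23Δli livers. The med23Δli values lay inside the range of the controls. The means were 1.95 ± 1.19 and 1.71 ± 0.162 FPKM (SD, n = 3 each), with a log2 fold change of 0.02, a 95% interval from −0.99 to 1.02 and an adjusted p of 0.982 (limma). The sign of this change turned with the pseudocount and with single livers, so it has no direction.

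Cxcl14, a ligand made by many epithelia and by adipose tissue, had 16.8, 16.2 and 14.0 FPKM in med23f/f and 18.3, 21.5 and 20.4 FPKM in med23Δli livers. The med23Δli livers were all above the controls. The means were 15.7 ± 1.47 and 20.1 ± 1.65 FPKM (SD, n = 3 each), and the log2 fold change was 0.36 (95% interval from 0.05 to 0.67), for an adjusted p of 0.0952 (limma), which misses the threshold. The highest value came from med23Δli replicate 2, the library with adipose genes, and without it the log2 fold change was 0.31 with an adjusted p of 0.280 (limma).

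Cxcl16, the transmembrane ligand of CXCR6, had 5.27, 6.56 and 6.54 FPKM in med23f/f and 6.19, 7.73 and 5.52 FPKM in med23Δli livers. The groups overlapped. The means were 6.13 ± 0.740 and 6.48 ± 1.13 FPKM (SD, n = 3 each), and the log2 fold change was 0.07 (95% interval from −0.32 to 0.47), for an adjusted p of 0.787 (limma). Its sign turned to −0.06 without med23Δli replicate 2, which had the highest value. The antisense neighbour Zmynd15 shares 552 of 3021 exon bases of Cxcl16 and was listed between 1.08 and 1.50 FPKM.

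Averaged over their members, the 3 classes differed little between the groups. The mean log2(FPKM + 0.1) of the neutrophil-directed class was 1.45 ± 0.47 in med23f/f and 1.41 ± 0.23 in med23Δli livers, that of the interferon-type class 1.22 ± 0.22 and 1.12 ± 0.07, and that of the homeostatic class 3.33 ± 0.26 and 3.40 ± 0.14 (SD, n = 3 each). These differences of −0.04, −0.11 and 0.07 were smaller than the SD of at least 1 group in each class. In all 3 classes members with opposite signs were averaged, and no class difference kept its sign. The interferon-type difference was 0.12 with a pseudocount of 1, and the neutrophil-directed difference was 0.13 with a pseudocount of 0.01. With 1 liver left out, the differences ran from −0.28 to 0.19 for the neutrophil-directed, from −0.20 to 0.01 for the interferon-type and from −0.05 to 0.21 for the homeostatic class, and the positive end of the first 2 ranges and the negative end of the third came without med23f/f replicate 1. Summed as FPKM, where the most abundant members weigh most, the interferon-type ligands came to 7.97 to 9.35 FPKM in med23f/f and 12.5 to 14.8 FPKM in med23Δli livers. Cxcl10 made up most of these sums in every liver of both groups.

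The receptors were low in whole liver. Of 8 receptor genes, 4 were tested and 0 passed at an adjusted p under 0.05 (limma). Among all tested genes 11.6% were higher and 9.48% lower at that threshold. At an unadjusted p under 0.05, 20.5% of all tested genes were higher and 17.1% lower, and 1 receptor was lower. That was Cxcr2, the receptor of the ELR ligands, at 1.31 ± 0.264 FPKM in med23f/f and 0.750 ± 0.190 FPKM in med23Δli livers (SD, n = 3 each; log2 fold change −0.74, adjusted p = 0.0779, limma). Cxcr1, the first in the list, had 0.0528 ± 0.0674 and 0.0954 ± 0.0709 FPKM, and Cxcr3, the receptor of the interferon-type ligands, had 0.300 ± 0.137 and 0.176 ± 0.170 FPKM, both under the filter. Cxcr4, the receptor of Cxcl12, was at 0.38 in log2 fold change (adjusted p = 0.413, limma).

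Of 5 proteases that cleave CXC ligands, 4 were tested. At an adjusted p under 0.05 (limma) 1 was lower and 0 higher, against 9.48% and 11.6% of all tested genes. Mmp9, a gelatinase of neutrophils and macrophages that trims ELR ligands, fell from 2.37 ± 0.849 to 0.941 ± 0.243 FPKM (SD, n = 3 each; log2 fold change −1.20, adjusted p = 0.0320, limma). Adam10 and Adam17, the sheddases of Cxcl16, had log2 fold changes of 0.12 and 0.07 (adjusted p = 0.591 and 0.741, limma). The call of Mmp9 held in 1 of the 6 fits with a liver left out, in which its log2 fold change lay between −1.51 and −0.98.

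The list of inducing cytokines held 7 genes, of which 3 were tested and 0 passed the adjusted test (limma). Of all tested genes 11.6% were higher and 9.48% lower by that test. At an unadjusted p under 0.05, 20.5% of all tested genes were higher and 17.1% lower, and 1 cytokine was higher. This was Il1b, at 3.69 ± 0.514 FPKM in med23f/f and 5.95 ± 2.03 FPKM in med23Δli livers (SD, n = 3 each; adjusted p = 0.116, limma). Tnf and Il1a had log2 fold changes of 0.30 and 0.11 (adjusted p = 0.562 and 0.742, limma). Ifng, the inducer of Cxcl9, was listed between 0 and 0.0805 FPKM.

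Lists of response genes were set beside the ligands, and their counts are to be read against the shares of all tested genes, 11.6% higher and 9.48% lower at an adjusted p under 0.05 and 20.5% higher and 17.1% lower at an unadjusted p under 0.05. Of 13 tested interferon-response genes, 0 were higher and 1 was lower at an adjusted p under 0.05, and 5 were lower at an unadjusted p under 0.05, while Cxcl10 was higher. Stat2, a subunit of the type I interferon transcription factor, fell from 17.4 ± 3.11 to 10.7 ± 0.587 FPKM (SD, n = 3 each; log2 fold change −0.68, adjusted p = 0.0216, limma). The median log2 fold change of this list was −0.20. Of 13 tested NF-κB and IL-1 response genes, 3 were higher and 0 lower at an adjusted p under 0.05, 3 were higher and 2 lower at an unadjusted p under 0.05, and the median was 0.17. The 2 lower genes were the acute-phase genes Saa1 and Saa2, with log2 fold changes of −1.45 and −1.56 (adjusted p = 0.0773 and 0.0874, limma). Ier3, an immediate early gene, rose from 22.3 ± 11.7 to 60.9 ± 4.29 FPKM (SD, n = 3 each; log2 fold change 1.56, adjusted p = 0.0153, limma). Relb and Nfkb2, subunits of the alternative NF-κB pathway, rose with log2 fold changes of 0.60 and 0.65 (adjusted p = 0.0471 and 0.0481, limma). With 1 liver left out, the calls held in 4 of 6 fits for Ier3, 3 for Stat2 and 1 each for Relb and Nfkb2, with no change of direction. Nfkbia and Nfkbiz, which encode inhibitors of the IκB family, had log2 fold changes of 0.21 and 0.30 (adjusted p = 0.417 and 0.329, limma).

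**Figure D4:**
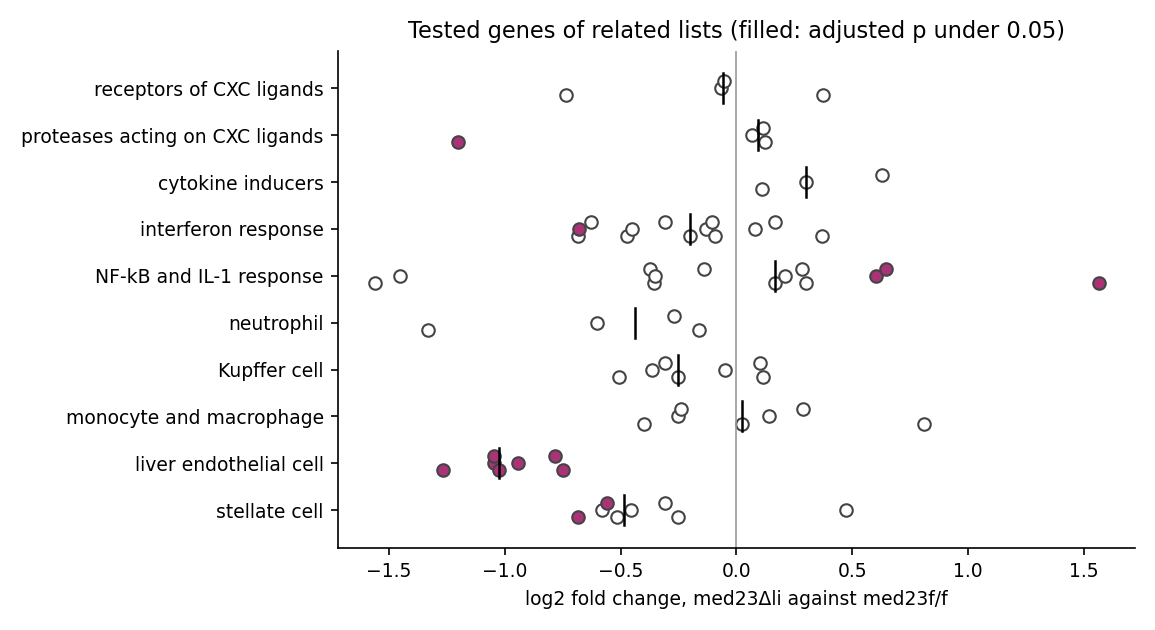
Log2 fold change of the tested genes in lists related to the CXC ligands, med23Δli against med23f/f (limma, n = 3 each), with 1 point a gene, black lines for list medians and filled points for an adjusted p under 0.05. All 7 liver endothelial cell markers lie below 0 and pass the test, where 9.48% of all tested genes were lower. The neutrophil, Kupffer cell and monocyte and macrophage markers do not pass it.

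Markers of the cells that make or receive these ligands were read beside them. Their counts are to be read against the shares of all tested genes, 11.6% higher and 9.48% lower at an adjusted p under 0.05. At an unadjusted p under 0.05 the shares were 20.5% higher and 17.1% lower. Of 7 liver endothelial cell markers all 7 were lower, with a median log2 fold change of −1.03 and a summed level of 89.5 to 128 FPKM in med23f/f and 48.5 to 52.0 FPKM in med23Δli livers. Kdr fell by 1.03 and Stab2 by 1.05 on the log2 scale (adjusted p = 0.00426 and 0.00574, limma), and both calls held with any liver left out, as did those of Clec4g, Pecam1 and Oit3, whereas those of Lyve1 and Cdh5 held in 3 of the 6 fits. Of 8 stellate cell markers 2 were lower, Ecm1 and Des (adjusted p = 0.0330 and 0.0497, limma), and each call held in 1 of the 6 fits with a liver left out. Of 6 hepatocyte markers 0 were higher and 1 was lower, Serpina1a (adjusted p = 0.0305, limma), a member of a family of near-identical copies between which reads could be split, whose call held in 2 of those fits. At an unadjusted p under 0.05, 1 stellate cell marker was higher and 3 were lower, and 1 hepatocyte marker was higher and 3 were lower. Cxcl12, which endothelial and stellate cells make, had the log2 fold change of −0.15 given above, and Cxcl10 was higher in the same livers. The part of these markers in the ligand values was not tested. Of 4 tested neutrophil markers 0 passed the adjusted test (limma) and 2 were lower at an unadjusted p under 0.05, with sums of 42.5 to 135 FPKM in med23f/f and 40.6 to 99.7 FPKM in med23Δli livers over the 9 markers of the 10 that the table holds. The Kupffer cell list and the monocyte and macrophage list, 7 tested genes each, had 0 calls (limma), with 2 lower in the former and 1 higher in the latter at an unadjusted p under 0.05. The 10 T and NK cell markers, the cells that carry CXCR3, were all under the filter, with sums of 0.926 to 1.68 FPKM and 1.37 to 2.20 FPKM.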

How the data were processed

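Whole-liver RNA of 6 mice was sequenced as paired reads from TruSeq v2 libraries. Per the labels and the methods, reads were checked with FastQC and aligned to mm10 with TopHat, and the deposited table holds the FPKM that the authors computed with Cuffdiff; versions, annotation and the strand setting are not given in the sources used here. Its columns of the authors' fold changes, p-values, q-values and calls were not used, and 0 columns of per-library values were left unmapped. Low values showed no shared step from which whole reads could be recovered.

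Genes whose mean reached 0.5 FPKM were fitted on log2(FPKM + 0.1) in R 4.3.3 by limma 3.58.1, with lmFit and a trended eBayes. The test was checked on simulated data with independent normal errors and planted changes larger than that of Cxcl10. That check does not cover outlier livers or changes near 2-fold. Single values had exact two-sided permutation tests (scipy 1.17.1). Same-numbered livers did not deviate together (correlations of −0.02, −0.05 and −0.12 across genes), so numbers were not treated as pairs. The genes named from a list are its first 2 and up to 4 that passed the test; other list genes named, such as Cxcr3, Il1b and Retnlg, were chosen after their values were seen. A gene that this rule names is not reported here. The ligands, lists and tests were chosen with earlier results of these data known. Sequences are from GENCODE M21 and RefSeq GRCm38.p6.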

Additional observations from a re-analysis of the deposited data

How the results depend on the processing

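The rise of Cxcl10 kept its direction and an adjusted p under 0.05 in all 15 alternatives tried (other pseudocounts, filters, scalings and variance settings, the replicate block and each liver left out), with adjusted p from 0.00368 to 0.0373 (limma). With the replicate block its log2 fold change was 1.09 with an adjusted p of 0.0288, and the block changed no call among the ligands, where 1 was higher. With 1 liver left out, the number of ligands higher was 1 to 2 (2 without med23f/f replicate 1, which adds Cxcl1), the number lower 0 to 1 (1 without med23f/f replicate 3, which brings Cxcl11 over the filter), the number higher by more than 2-fold 0 to 2 (0 without med23f/f replicate 2, 2 without med23f/f replicate 1) and the number lower by more than 2-fold 0 to 1. With a pseudocount of 1 the number higher by more than 2-fold was 0, since Cxcl10 then had 0.96, and the interferon-type class difference was 0.12. Cxcl13 turned to −0.037 with a pseudocount of 1, −0.011 with median centring, −0.52 without med23f/f replicate 1 and −0.055 without med23Δli replicate 2, between −0.52 and 0.44 with 1 liver left out. Cxcl16 turned to −0.030 without med23f/f replicate 1 and −0.060 without med23Δli replicate 2, between −0.060 and 0.18 with 1 liver left out. The cause was not tested. Over all genes the replicate block gave 1423 calls in place of 2517, and quantile normalization made 49.1% of calls higher in place of 55.0%. The depth of each library is unknown, so no counting error could be given for the low values of Cxcl5 and Cxcl11.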

Other observations

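The CXC ligands outside the 10 were low or varied. Pf4, the platelet ligand CXCL4, had 3.42, 3.63 and 4.59 FPKM in med23f/f and 0.648, 2.40 and 3.59 FPKM in med23Δli livers. The groups overlapped, with med23Δli replicate 1 far below the rest, and the log2 fold change of −1.05 had an adjusted p of 0.177 (limma). Ppbp, the other platelet ligand, was listed between 0.0942 and 0.369 FPKM. Cxcl17 reached at most 0.118 FPKM, and Cxcl15 was listed at 0 in every library.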
